A study of Mus musculus with 48 samples.

Results

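The genes *Hlf*, *Mecom*, *Ikzf1*, *Ikzf2*, *Mycn* and *Etv6* encode transcription factors known for the identity and upkeep of blood stem cells. They are 6 of the 21435 genes with a name among the measured transcripts. Their rows were picked by gene symbol in the GENCODE M21 annotation, and 27 of the 52927 transcripts measured belonged to them, out of 46 transcripts that the annotation lists for them. Full-length cDNA of polyA RNA was read on a Nanopore PromethION sequencer in 48 single cells, sorted by FACS from the aorta-gonads-mesonephros region (AGM). The embryos were C57 mice, wild type, at embryonic day 10. By title, 24 cells are HEC and 24 are AEC; strain, age and region were the same in both groups. The labels do not spell out the titles, which in this field usually stand for hemogenic and arterial endothelial cells, and for HEC cells the tag for cell type reads hematopoietic stem cells. No animal is named for any cell, so each group counts as 1 sample: differences have no replicate check and no test, and each value after ± is the SD between cells.

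Blood stem cells first arise in the AGM from hemogenic endothelial cells, which line the dorsal aorta, lose endothelial features and take on a blood program. The factors studied here belong to different families that act on the same cells. *Hlf* encodes a bZIP activator of the PAR family that marks blood stem cells in the mouse embryo and supports their quiescence. *Mecom*, also known as *Evi1* and *Prdm3*, encodes zinc finger proteins needed to maintain blood stem cells. *Ikzf1* and *Ikzf2* encode the zinc finger proteins Ikaros and Helios, which recruit the NuRD chromatin remodeling complex. *Mycn* encodes a Myc family factor that drives growth and ribosome production and shares this role in blood stem cells with *Myc*. *Etv6* encodes an ETS family repressor that adult blood stem cells need to persist in bone marrow.

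Values are reads per 10000 reads of the cell, and a cell is said to hold a gene at a value of 1 or more. Depth ranged from 96410 to 8897958 reads in HEC cells (median 724674) and from 13261 to 4883854 in AEC cells (median 769716), and 1 HEC cell and 6 AEC cells had under 100000 reads. A median of 10645 genes was above 0 in HEC cells and 8317 in AEC cells. Markers followed the titles in most cells: 10 of 10 hemogenic markers were found, with a summed level of 1.83 to 25.6 in HEC cells (median 16.7) and 0.192 to 11.03 in AEC cells (median 1.54). The 10 endothelial markers summed to 7.79 to 76.3 in HEC cells (median 17.4) and 1.83 to 98.2 in AEC cells (median 45.8). HEC 20 had the lowest hemogenic sum of its group. HEC 7 had a hemogenic sum of 2.55 and the highest endothelial sum of its group, 76.3. AEC 11, AEC 19 and AEC 20 had little *Cdh5*, the vascular cadherin. The 8 mesenchymal markers found summed to a median of 3.801 in HEC cells (1.20 to 31.3) and 3.41 in AEC cells (0.781 to 148), with 95.5, 148 and 146 in those 3 AEC cells. The 10 erythroid markers summed to a median of 39.2 in HEC cells (26.0 to 185) and 15.2 in AEC cells (10.4 to 164). Globins made up nearly all of that sum: *Alas2* and *Gata1*, which are known from red cell precursors, reached 1 in 0 HEC cells and 0 AEC cells, while *Klf1* and *Epor* each reached 1 in 0 HEC cells and 1 AEC cell. Other lists were low: in HEC cells the 5 macrophage markers found summed to a median of 1.004, the 6 megakaryocyte markers to 0.638, the 5 lymphoid markers to 0.0391 and the 6 neural and epithelial markers to 0.808. In AEC cells these medians were 0.145, 0.0297, 0.0258 and 0.570. The part of these other signals in the results on the 6 factors was not tested. Without HEC 20, AEC 11, AEC 19 and AEC 20 the log2 ratios of HEC over AEC means, with 0.1 added to each mean, were 2.36 for *Hlf*, -0.59 for *Mecom*, 1.36 for *Ikzf1*, 1.81 for *Ikzf2*, -1.17 for *Mycn* and 1.05 for *Etv6*.

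HEC cells held more of the factors at once than AEC cells did. An HEC cell held a median of 3 of the 6 (range 0 to 6), and an AEC cell a median of 1 (range 0 to 2). In HEC, 16 of 24 cells held 3 or more, 7 held 4 or more, and HEC 6 alone held all 6, while 0 of 24 AEC cells held 3 or more. The groups overlapped in the 8 HEC cells with 2 or fewer, among them HEC 20, which held none, and HEC 3, which held *Mycn* alone. At a threshold of 0.5, HEC cells held a median of 4 factors and AEC cells 1.5, with 3 or more in 23 HEC cells and in 6 AEC cells. HEC cells also had more genes above 0, a median of 10645 against 8317 in AEC cells. By medians over cells, 29.6% of 8695 genes had a log2 ratio of HEC over AEC of at least 1, and 2.29% one of -1 or lower. A matching count per cell over all genes was not made. The combinations differed from cell to cell: *Mecom* with *Ikzf2* was the most frequent pair in HEC, held together by 14 cells, followed by *Ikzf2* with *Mycn* in 13 and *Mecom* with *Mycn* in 10. All 6 HEC cells that held *Hlf* also held both *Mecom* and *Ikzf2*, and 2 of them held *Mycn*. Over all HEC cells the Spearman correlation of *Hlf* was 0.21 with *Mecom*, 0.20 with *Ikzf2* and -0.14 with *Mycn*.

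**Figure D1:**
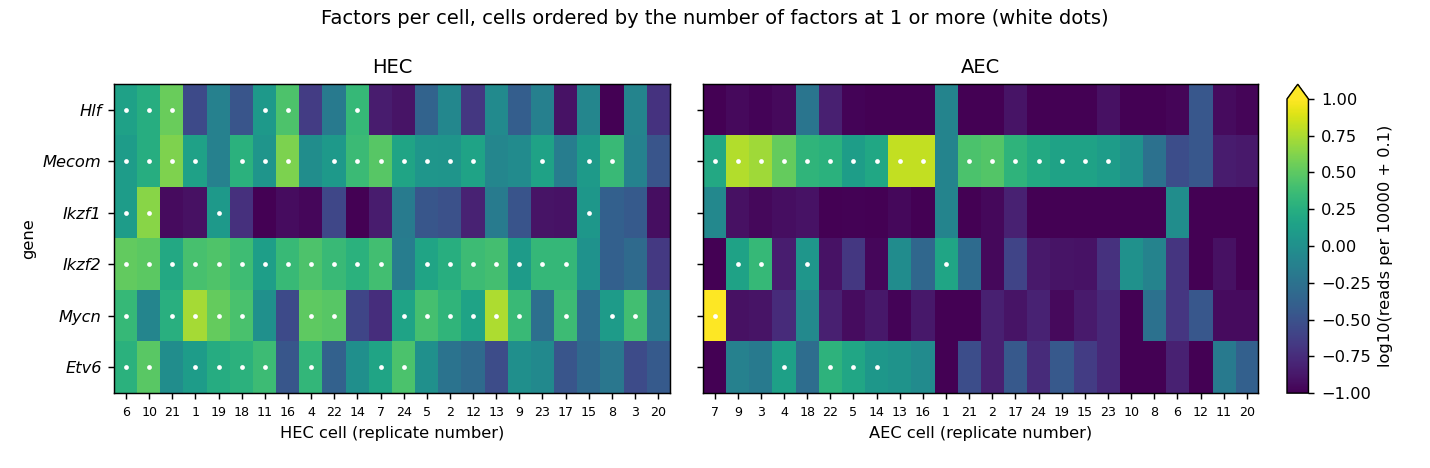
Level of each factor (rows) in each of the 24 HEC cells (left) and the 24 AEC cells (right), as log10 of reads per 10000 plus 0.1; white dots mark values of 1 or more and cells run from most to fewest such factors. HEC columns carry up to 6 dots and AEC columns at most 2, and most AEC dots lie in the *Mecom* row.

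Of the 6 factors, 4 had a log2 ratio of HEC over AEC means of at least 1: *Hlf*, *Ikzf1*, *Ikzf2* and *Etv6*. Of the 8695 genes whose mean across all cells was 0.1 or higher, 552 (6.35%) did so, and the median log2 ratio was 0.04. A single factor, *Mycn*, had a ratio of -1 or lower, against 817 of those genes (9.4%), and that ratio came from 1 AEC cell. Without that cell, AEC 7, *Mycn* stood at 3.36 and *Etv6* at 0.99, so that again 4 of 6 were at 1 or more, against 577 of 8686 genes (6.64%), and none was at -1 or lower, against 802 genes (9.23%). Each ratio was computed on group means plus 0.1, which understates changes of low genes.

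**Figure D2:**
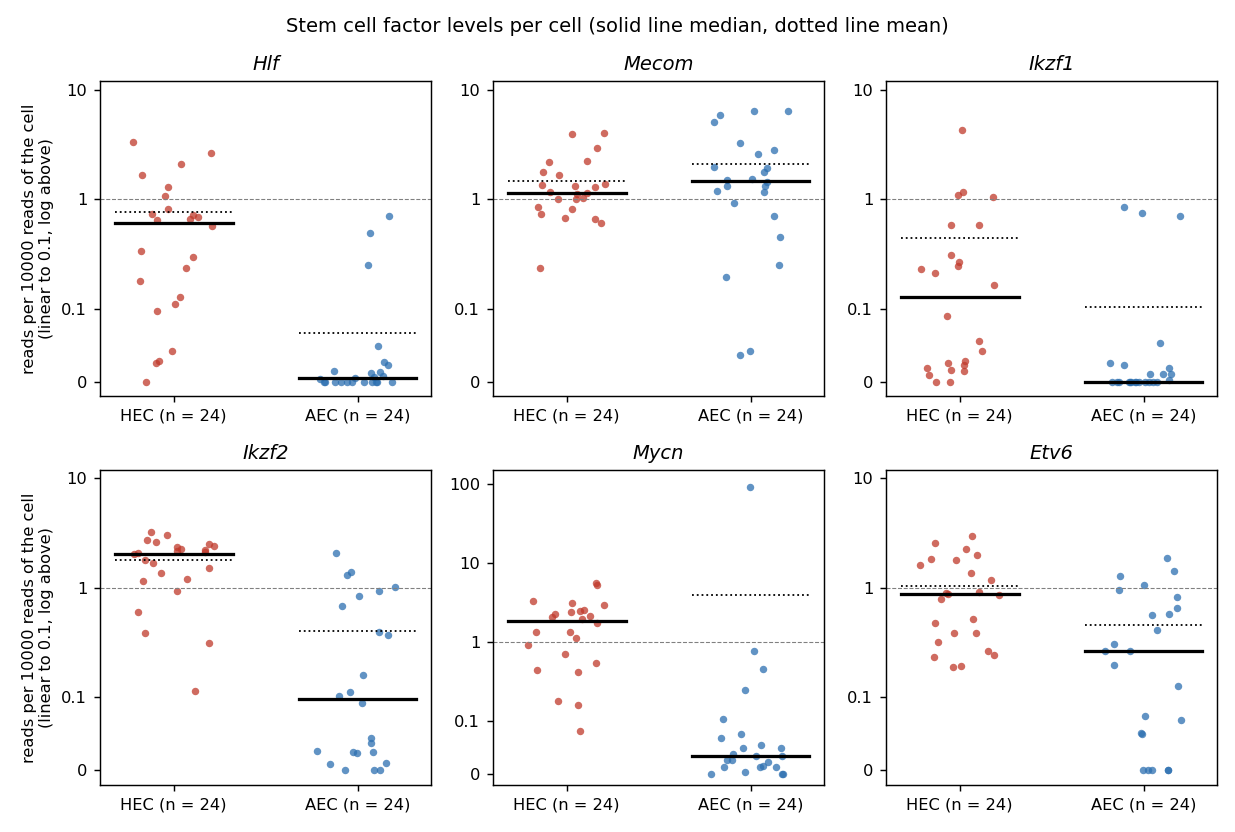
Level of each factor per cell (points), in HEC cells (left, n = 24) and AEC cells (right, n = 24) of each panel, in reads per 10000 reads of the cell on an axis that is linear to 0.1 and logarithmic above; solid lines are medians, dotted lines are means, and the dashed line is at 1. *Hlf*, *Ikzf2* and *Mycn* sit higher in HEC cells apart from the single AEC cell with 92.0 for *Mycn*, whereas the *Mecom* points of both groups overlap over most of their range.

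*Hlf* (ENSMUSG00000003949, chr11:90336536-90390895, mm10, minus strand) was above 0 in 23 of 24 HEC cells and in 13 of 24 AEC cells. Most AEC values were very low, with an upper quartile of 0.0162. The lowest, median and highest values were 0, 0.607 and 3.36 in HEC cells, and 0, 0.0048 and 0.702 in AEC cells. Means were 0.770 ± 0.882 in HEC and 0.0669 ± 0.174 in AEC cells, which is a log2 ratio of 2.38, and the difference was 0.798 times the larger SD. The groups overlapped at the low end, but 9 HEC cells lay above every AEC cell. Of 24 HEC cells, 6 held *Hlf*, which is 25% (95% interval of 9.77 to 46.7% by the exact Clopper-Pearson method), namely HEC 21 (3.36), 16 (2.65), 14 (2.10), 10 (1.67), 6 (1.30) and 11 (1.08). It reached 1 in 0 of 24 AEC cells (interval 0 to 14.2%). Over all cells, 1910 reads in HEC and 36 in AEC came from *Hlf*, pooled levels of 0.558 in HEC (exact Poisson 95% interval 0.534 to 0.584) and 0.0147 in AEC (0.0103 to 0.0204). The highest AEC value was a single read in AEC 1, and it made up 43.8% of the summed AEC value.

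The coding transcript of *Hlf*, Hlf-201, made up 85.2% of its summed value in HEC cells and 97.2% in AEC cells. The remaining HEC share belonged to Hlf-202 (7.96%) and Hlf-203 (6.84%), which are annotated without a coding sequence. With 36 AEC reads, the AEC isoform shares rest on few reads. The other PAR bZIP genes were scarce: *Dbp* and *Nfil3*, a related repressor, stayed under the mean of 0.1 needed for a ratio, and *Tef* averaged 0.234 ± 0.380 in HEC and 0.196 ± 0.773 in AEC cells. The log2 ratio of *Tef* was 0.17, and 1.24 without AEC 7. The list median over *Hlf* and *Tef* was 1.28, with 1 of 2 genes at 1 or more.

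*Mecom* (ENSMUSG00000027684, chr3:29951296-30548008, mm10, minus strand) was held by as many HEC as AEC cells. Its lowest, median and highest values were 0.235, 1.15 and 4.0 in HEC cells, and 0.0365, 1.48 and 6.45 in AEC cells. Means were 1.46 ± 0.969 in HEC and 2.09 ± 1.96 in AEC cells, which is a log2 ratio of -0.49. The difference was 0.323 times the larger SD, no HEC cell exceeded the highest AEC cell, and 17 of 24 cells of each group reached 1 (70.8%, exact interval 48.9 to 87.4%). Pooled reads numbered 4302 in HEC and 6170 in AEC cells, at pooled levels of 1.26 in HEC (interval 1.22 to 1.30) and 2.53 in AEC (2.46 to 2.59), intervals that cover counting error and not the spread between cells. *Mecom* tracked endothelial markers in both groups: its Spearman correlation with their summed level was 0.51 over HEC cells and 0.65 over AEC cells. With the summed mesenchymal markers it was -0.27 over HEC cells and -0.61 over AEC cells. Correlations here are descriptions over 24 cells of a group that share a library type and differ in depth.

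The *Mecom* gene has widely spaced annotated starts, and the groups had different shares of transcripts assigned to them, although the differences in share and level lay within the spread between cells. Products that begin at the distal start are known as MDS1-EVI1 and can carry a PR domain, while products of the proximal start are known as EVI1 and lack it. Which of the transcripts measured here encode a PR domain was not determined. The main distal transcript, Mecom-212, has an annotated coding sequence of 3153 bases, close to the 3126 bases of the proximal Mecom-202. Mecom-207, a coding distal transcript with a 344-base exon that Mecom-212 skips, held 3.19% of the value in HEC and 1.74% in AEC cells. Both starts, 496555 bases apart, are shown by the 250 bases before each because the shift lies between them. The windows are chr3:30509760-30510009 and chr3:30013205-30013454 on the minus strand of GRCm38.p6, from RefSeq, with CG dinucleotides in capitals.
Mecom distal promoter: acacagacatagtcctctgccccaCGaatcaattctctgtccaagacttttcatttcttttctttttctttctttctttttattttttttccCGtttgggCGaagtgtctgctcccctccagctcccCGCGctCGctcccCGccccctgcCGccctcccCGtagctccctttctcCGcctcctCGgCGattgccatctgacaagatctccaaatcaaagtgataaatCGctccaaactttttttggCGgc
Mecom proximal promoter: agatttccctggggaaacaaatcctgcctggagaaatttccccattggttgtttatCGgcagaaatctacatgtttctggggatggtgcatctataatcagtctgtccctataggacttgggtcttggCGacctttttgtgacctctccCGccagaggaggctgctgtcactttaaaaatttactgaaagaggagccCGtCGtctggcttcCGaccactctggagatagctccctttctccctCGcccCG
The distal window holds 14 CG dinucleotides and 50.8% G or C, and the proximal window 8 and 50.4%, against a median of 6 over 32851 windows of the same length (quartiles 2 and 16). Neither window holds, on either strand, TGTGGT, which RUNX factors bind and which occurs in 14% of all windows. Neither holds AGATAA for GATA factors (9.99% of windows), nor AGGAAG for ETS factors (29.5%), nor CACGTG for Myc and other E-box factors (6.02%). Absence of these letters from the windows says nothing of the factors.

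Transcripts with the distal start made up 24.4% of the summed *Mecom* value in HEC cells and 3.71% in AEC cells. Their lowest, median and highest levels were 0, 0.123 and 2.178 in HEC cells, and 0, 0.00307 and 0.687 in AEC cells, with means of 0.356 ± 0.510 in HEC and 0.0775 ± 0.159 in AEC cells. The groups overlapped, yet 15 HEC cells and 5 AEC cells reached 0.1, and 7 HEC cells and 1 AEC cell reached 0.5. Among those 7 were HEC 8 (2.178) and HEC 7 (1.39), the HEC cell with the highest endothelial sum. In reads, 1205 of 4302 in HEC cells and 144 of 6170 in AEC cells had this assignment. Among cells with *Mecom* at 0.5 or more, the distal share averaged 24.02% in HEC (SD 27.1, 23 cells) and 4.12% in AEC (SD 7.35, 19 cells), with medians of 11.1% in HEC and 0.514% in AEC. Leaving out each cell in turn kept the share of the summed value between 19.4 and 27.5% in HEC, lowest without HEC 8, whose 21 *Mecom* reads were all distal, and between 2.48 and 4.23% in AEC, lowest without AEC 2.

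Proximal-start transcripts ran the other way, with 15.5% of the *Mecom* value in HEC cells and 33.6% in AEC cells. They reached 0.5 in 3 HEC cells and 10 AEC cells, and their means were 0.226 ± 0.271 in HEC and 0.703 ± 0.818 in AEC cells. Transcripts that start between these points held the largest part in each group, 60.1% in HEC and 62.7% in AEC cells. The start classes were defined after the values had been seen, and they follow the annotated start of the transcript to which the authors assigned a read. Whether a read was shorter than its transcript at the 5′ end was not tested.

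**Figure D3:**
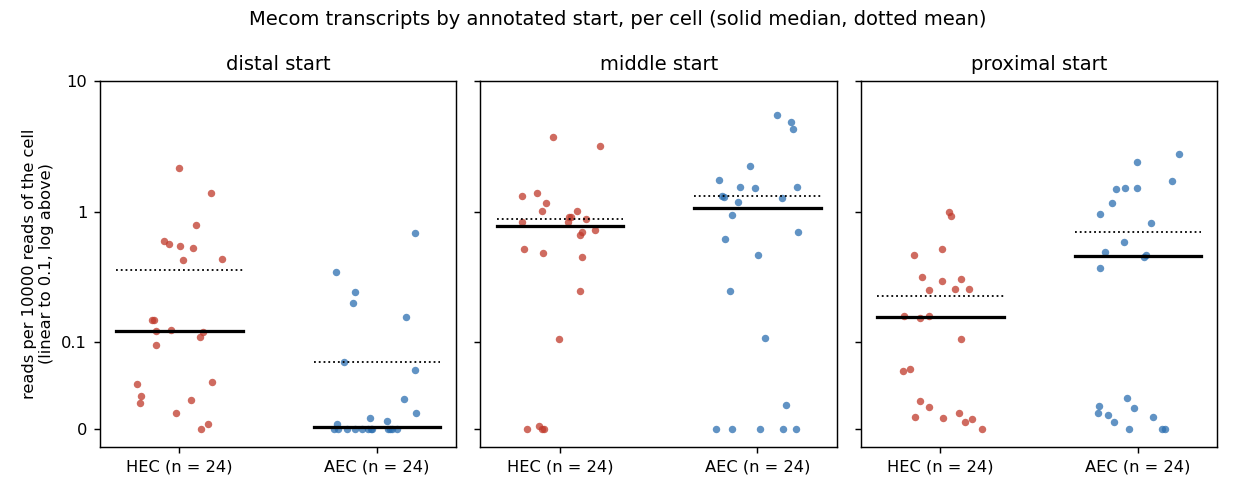
Level per cell (points) of *Mecom* transcripts with a distal, middle or proximal annotated start, in HEC cells (left, n = 24) and AEC cells (right, n = 24) of each panel, in reads per 10000 reads of the cell, linear to 0.1 and logarithmic above; solid lines are medians and dotted lines means. Distal transcripts reach 0.5 in 7 HEC cells and 1 AEC cell, and proximal transcripts in 3 HEC cells and 10 AEC cells.

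A single middle-start transcript, Mecom-203, carried most of the gene in both groups, with 58.0% of the value in HEC cells and 59.5% in AEC cells. Its annotated coding sequence begins in its first exon, which starts 369336 bases downstream of the distal start. By pooled reads its share was 47.3% in HEC and 69.4% in AEC cells. Mecom-212, which begins at the distal start, had 19.4% in HEC and 1.88% in AEC cells, and means of 0.283 ± 0.422 in HEC and 0.0393 ± 0.0817 in AEC cells. The proximal transcripts Mecom-206 and Mecom-216 had 1.35% and 9.59% in HEC cells, against 11.01% and 15% in AEC cells. Mecom-216 is annotated as a retained intron with no coding sequence, and without AEC 21 the AEC share of Mecom-206 was 7.42%. The coding sequences of Mecom-212 and Mecom-203 are annotated at 3153 and 2385 bases. Mecom-203 also has coding bases at its 5′ end that Mecom-212 lacks, of which only the first are printed. The next 3 stretches, from GENCODE M21 exons on GRCm38, show part of what separates the 2 transcripts. They are, in order, the first coding bases of Mecom-203 with the start codon in capitals (chr3:30140328-30140369, minus strand), the inner splice site of the large coding exon with the side kept in both forms in capitals (chr3:29979956-29980015, minus strand), and a short exon in Mecom-212 that Mecom-203 lacks (chr3:29972680-29972706, minus strand).
Mecom-203 first coding bases: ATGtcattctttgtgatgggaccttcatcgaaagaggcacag
Mecom large exon around the inner splice site: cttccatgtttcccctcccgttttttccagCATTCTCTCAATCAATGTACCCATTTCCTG
Mecom 27-base exon: ttcccactacctgaccagagaacatgg

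The large coding exon exists in a whole form and in a form shortened by 972 bases (chr3:29979986-29980957), which starts at the inner splice site shown above. The whole form, as in Mecom-212, is known to encode zinc fingers that the shortened EVI1 product lacks. Among the 7 transcripts that reach this exon, those with the whole form held 27.7% of the value in HEC cells and 9.79% in AEC cells. The mean share per cell, over cells with at least 0.5 from these transcripts, was 28.6% in HEC (SD 33.3, 20 cells) and 8.30% in AEC (SD 12.5, 17 cells). AEC 3 alone carried much of the AEC share, which was 5.49% without it. The 27-base exon was in transcripts that held 22.6% of the gene value in HEC and 3.62% in AEC cells, or 1167 reads in HEC and 140 in AEC cells. A 344-base exon found in other distal transcripts, and skipped by Mecom-212, was rarer, with 4.99% in HEC and 1.82% in AEC cells.

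Within HEC cells, *Mecom* and *Mycn* ran against each other, with a Spearman correlation of -0.50, the largest in size among the 15 pairs of factors in that group. Over HEC cells the middle-start transcripts correlated with *Hlf* at 0.44, with *Etv6* at 0.39 and with *Mycn* at -0.42. The distal ones correlated with these at -0.10, -0.10 and -0.20. With the summed endothelial markers the distal transcripts were at 0.41, and with the summed hemogenic markers at -0.30. For the middle-start transcripts these values were 0.23 and 0.03. They are some of many such values and carry no test. In AEC cells, *Mecom* correlated with *Etv6* at 0.48. *Mecom* is itself a Prdm family gene. Of the 5 family members abundant enough for a ratio, 0 were at 1 or more and 2 were at -1 or lower. The median of -0.49 is the ratio of *Mecom* itself. *Prdm2*, a tumor suppressor gene, had a log2 ratio of -1.51 and *Prdm16*, a factor of blood and neural stem cells, one of -1.01, with means of 0.122 ± 0.175 in HEC and 0.345 ± 0.708 in AEC cells. Of 12 genes of the CtBP, Sin3 and NCoR corepressors, the partners through which *Mecom* and *Etv6* products are known to repress, none passed 1 in either direction and the median was 0.39. The largest ratios were those of *Kdm1a* (0.84), *Tbl1xr1* (0.83) and *Rcor1* (0.72).

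*Ikzf2* (ENSMUSG00000025997, chr1:69531214-69687245, mm10, minus strand) had the largest difference of the 6 relative to the spread between cells. The lowest, median and highest values were 0.115, 2.05 and 3.21 in HEC cells, and 0, 0.0974 and 2.08 in AEC cells. Means were 1.79 ± 0.871 in HEC and 0.404 ± 0.572 in AEC cells, which is a log2 ratio of 1.91, and the difference was 1.59 times the larger SD. All 24 HEC cells lay above the AEC median and 11 lay above every AEC cell. It reached 1 in 19 of 24 HEC cells (79.2%, exact interval 57.8 to 92.9%) and in 4 of 24 AEC cells (16.7%, interval 4.74 to 37.4%). Those AEC cells were AEC 3 (2.08), AEC 1 (1.40), AEC 9 (1.32) and AEC 18 (1.02), of which AEC 1 rests on 2 reads. The HEC cells below 1 were few, and HEC 20, with the lowest summed hemogenic markers, had the lowest value. However, HEC 7, with a low hemogenic sum of 2.55, had an *Ikzf2* value of 2.38, and HEC 24, with a sum of 21.9, had 0.602. Over HEC cells *Ikzf2* correlated with the summed hemogenic markers at 0.33. The ratio of medians was larger, a log2 ratio of 3.44, but all genes shifted on that scale, with a median of 0.59, and 29.6% of genes stood at 1 or more and 2.29% at -1 or lower.

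The coding transcript Ikzf2-201 made up 90.0% of the *Ikzf2* value in HEC cells and 81.5% in AEC cells. Ikzf2-203, a retained intron form, held 3.90% in HEC and 17.96% in AEC cells, but was above 0 in only 8 HEC cells and 2 AEC cells. In AEC 10 it was the only *Ikzf2* transcript, with 2 reads. Without AEC 10 the AEC share was 9.27%, all from the other of those AEC cells. The transcript level of Ikzf2-201 itself averaged 1.61 ± 0.889 in HEC and 0.329 ± 0.560 in AEC cells.

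*Ikzf1* (ENSMUSG00000018654, chr11:11685003-11772926, mm10, plus strand) was low in most cells of both groups and high in a few. The lowest, median and highest values were 0, 0.128 and 4.33 in HEC cells, and 0, 0 and 0.853 in AEC cells. Means were 0.440 ± 0.904 in HEC and 0.103 ± 0.259 in AEC cells, which is a log2 ratio of 1.41, and the difference was 0.373 times the larger SD. Only HEC 10 (4.33), HEC 6 (1.17), HEC 19 (1.09) and HEC 15 (1.04) reached 1, which is 16.7% of HEC cells (exact interval 4.74 to 37.4%), and 0 of 24 AEC cells did (0 to 14.2%). HEC 10 contributed 41.0% of the HEC sum, and without it the log2 ratio was 0.87. Pooled reads were 911 in HEC cells, a level of 0.266 (interval 0.249 to 0.284), and 165 in AEC cells, a level of 0.0676 (0.0577 to 0.0787). Of the AEC reads, 149 came from AEC 6 (0.853), the AEC cell with the highest hemogenic sum (11.03) and the highest megakaryocyte sum (5.45), while AEC 7 and AEC 1 had 1 read each. HEC 10 and HEC 6, which held *Ikzf1*, also held *Hlf*, *Mecom*, *Ikzf2* and *Etv6*. HEC 19 and HEC 15, which held *Ikzf1* too, did not hold *Hlf*, with *Hlf* values of 0.659 and 0.724. Over HEC cells the Spearman correlation of *Ikzf1* with *Hlf* was -0.02.

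*Ikzf1* transcripts differ by a 60-base coding exon, shown because its presence separates the main forms of the gene (chr11:11740950-11741009, plus strand, GRCm38, GENCODE M21 exon).
Ikzf1 60-base exon: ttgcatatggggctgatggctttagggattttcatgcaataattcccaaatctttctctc
Ikzf1-203, with a coding sequence of 1605 bases, contains the exon and Ikzf1-204, with 1545 bases, does not. The form without it, Ikzf1-204, had 67.1% of the summed value in HEC cells and 2.53% in AEC cells. The form with it, Ikzf1-203, had 32.9% in HEC and 65.8% in AEC cells. Single cells decided these shares: without HEC 10, which expressed Ikzf1-204, the HEC shares were 44.3% for Ikzf1-204 and 55.7% for Ikzf1-203. In AEC, Ikzf1-201, which lacks a 261-base exon, had 31.7%, but only 1.52% without AEC 7, and Ikzf1-203 then had 94.8%. That share rested on few cells, as only 2 AEC cells other than AEC 7 had *Ikzf1* at 0.5 or more. With AEC 7 kept and AEC 6 left out, Ikzf1-203 had 47.7%. Among the 6 HEC cells with *Ikzf1* at 0.5 or more, the share with the 60-base exon averaged 61.1% (SD 48.1), with single cells at 0% and at 100%.

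Around the Ikaros genes, *Ikzf5*, whose product can pair with other family members, had a log2 ratio of 1.01, with means of 0.352 ± 0.319 in HEC and 0.124 ± 0.224 in AEC cells. All 3 Ikaros family genes with a ratio were thus at 1 or more, but 2 of them are the factors *Ikzf1* and *Ikzf2* themselves. The list median of 1.41 is the ratio of *Ikzf1*, which was 0.87 without HEC 10. *Ikzf4* was too low for a ratio. Of 13 NuRD subunit genes, the complex that Ikaros proteins recruit, none was at 1 or more and 1 was at -1 or lower, with a median of 0.42. *Chd3*, a remodeler ATPase of the complex, averaged 0.381 ± 0.445 in HEC and 1.33 ± 1.83 in AEC cells, which is a log2 ratio of -1.57. *Mbd2*, which binds methylated DNA, stood at 0.79 and *Mta1* at 0.66.

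*Mycn* (ENSMUSG00000037169, chr12:12936093-12941914, mm10, minus strand) was above 0 in every HEC cell and under 1 in every AEC cell other than AEC 7. Most AEC values were very low, with an upper quartile of 0.0707. The lowest, median and highest values were 0.0828, 1.84 and 5.54 in HEC cells, and 0, 0.0350 and 92.0 in AEC cells. The value of 92.0 belonged to AEC 7, the shallowest cell, where 122 of 13261 reads were assigned to *Mycn*, all to Mycn-201. The next highest AEC cells were AEC 18 (0.781), AEC 8 (0.453) and AEC 12 (0.249). AEC 7 made up 97.7% of the AEC sum and set its mean, so that means were 1.88 ± 1.46 in HEC and 3.92 ± 18.8 in AEC cells, which is a log2 ratio of -1.03. Without AEC 7 the AEC mean was 0.0931 (SD 0.180), the log2 ratio was 3.36, and the difference was 1.22 times the larger SD. All 24 HEC cells lay above the AEC median, and 17 lay above every AEC cell other than AEC 7. It reached 1 in 16 of 24 HEC cells (66.7%, exact interval 44.7 to 84.4%) and in 1 of 24 AEC cells (4.17%, interval 0.105 to 21.1%). By pooled reads, which weigh cells by depth, the levels were 2.81 in HEC cells (interval 2.75 to 2.86) and 0.0966 in AEC cells (0.0847 to 0.110). Why AEC 7 differed was not tested.

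The transcripts Mycn-201 and Mycn-202 share a coding sequence of 1386 bases and differ in the first exon. Mycn-202 made up 20.7% of the value in HEC cells and 0.518% in AEC cells, and 22.8% of the AEC value without AEC 7. Its AEC value rests on 35 reads, and its highest AEC value, 0.249, was 1 read in AEC 12. In HEC cells Mycn-202 had 580 of the 9601 *Mycn* reads. Within HEC cells *Mycn* correlated with the summed hemogenic markers at 0.54 and with depth at 0.38. Its highest cells were HEC 13 (5.54), HEC 1 (5.23), HEC 19 (3.28) and HEC 4 (3.12). None of them reached 1 for *Hlf*, with *Hlf* values of 0.808, 0.180, 0.659 and 0.128 in that order. Over all HEC cells *Mycn* and *Hlf* correlated at -0.14.

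In the Myc and Max network, 10 genes had a ratio, with a median of 0.13, 1 at 1 or more and 2 at -1 or lower including *Mycn* itself. Without AEC 7 the median was 0.24, *Mycn* was the gene at 1 or more and *Mxd3* the gene at -1 or lower. *Myc*, the relative whose role *Mycn* shares, averaged 0.482 ± 0.697 in HEC and 0.662 ± 1.36 in AEC cells, which is a log2 ratio of -0.39; it is given as the closest relative of *Mycn* although it is not among the largest ratios. *Mga*, which encodes a Max partner that opposes Myc, stood at 1.04 (0.99 without AEC 7) and *Mxd3*, another Max partner, at -1.45. AEC 2 made up 38.3% of the AEC sum of *Mxd3*, and the *Mxd3* medians ran the other way, 0.0276 in HEC and 0.0124 in AEC cells. Of 18 genes known as Myc family targets, 8 were at 1 or more and none at -1 or lower, with a median of 0.89, beside 6.35% and 9.4% of all genes and a median of 0.04. *Fbl*, a nucleolar methyltransferase, averaged 3.97 ± 1.801 in HEC and 1.35 ± 1.49 in AEC cells, which is a log2 ratio of 1.49. *Ncl*, the major nucleolar protein nucleolin, averaged 10.1 ± 4.36 in HEC and 3.92 ± 4.31 in AEC cells, at 1.34, and *Rrs1*, a ribosome assembly factor, stood at 1.57.

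*Etv6* (ENSMUSG00000030199, chr6:134035700-134270158, mm10, plus strand) was above 0 in every HEC cell at a broad range of levels. The lowest, median and highest values were 0.189, 0.875 and 2.98 in HEC cells, and 0, 0.265 and 1.86 in AEC cells. Means were 1.05 ± 0.827 in HEC and 0.460 ± 0.526 in AEC cells, which is a log2 ratio of 1.04. The difference was 0.714 times the larger SD, and the groups overlapped over most of their range, with 4 HEC cells above every AEC cell. It reached 1 in 9 of 24 HEC cells (37.5%, exact interval 18.8 to 59.4%) and in 4 of 24 AEC cells (16.7%, interval 4.74 to 37.4%). Depth moved with this result: over AEC cells *Etv6* correlated with the reads of the cell at 0.69, over HEC cells at 0.02. It also ran against the summed mesenchymal markers (-0.29 over HEC cells, -0.61 over AEC cells) and erythroid markers (-0.19 over HEC cells, -0.58 over AEC cells), whose part in the result was not tested. Pooled levels were closer, 1.03 in HEC cells (interval 0.998 to 1.07) and 0.762 in AEC cells (0.727 to 0.797), and without cells under 100000 reads the log2 ratio was 0.74.

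Etv6-201 made up 84.4% of the value in HEC cells and 89.9% in AEC cells, and Etv6-202 the remaining 15.6% in HEC and 10.1% in AEC cells. Etv6-202 includes a further exon of 159 bases, and its annotated coding sequence of 1188 bases starts downstream, against 1455 bases in Etv6-201. It was above 0 in 12 HEC cells and 3 AEC cells, and its AEC share was 5.21% without AEC 3. Among 14 ETS family genes with a ratio, 6 were at 1 or more (5 without AEC 7) and none at -1 or lower, with a median of 0.33. *Spi1*, which encodes the myeloid factor PU.1, averaged 1.75 ± 0.900 in HEC and 0.418 ± 0.698 in AEC cells, which is a log2 ratio of 1.83. *Elf1* averaged 0.798 ± 0.582 in HEC and 0.200 ± 0.392 in AEC cells, at 1.58, and *Elk4* stood at 1.37. *Etv6* at 1.04 was the lowest of the ETS genes at 1 or more.

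**Figure D4:**
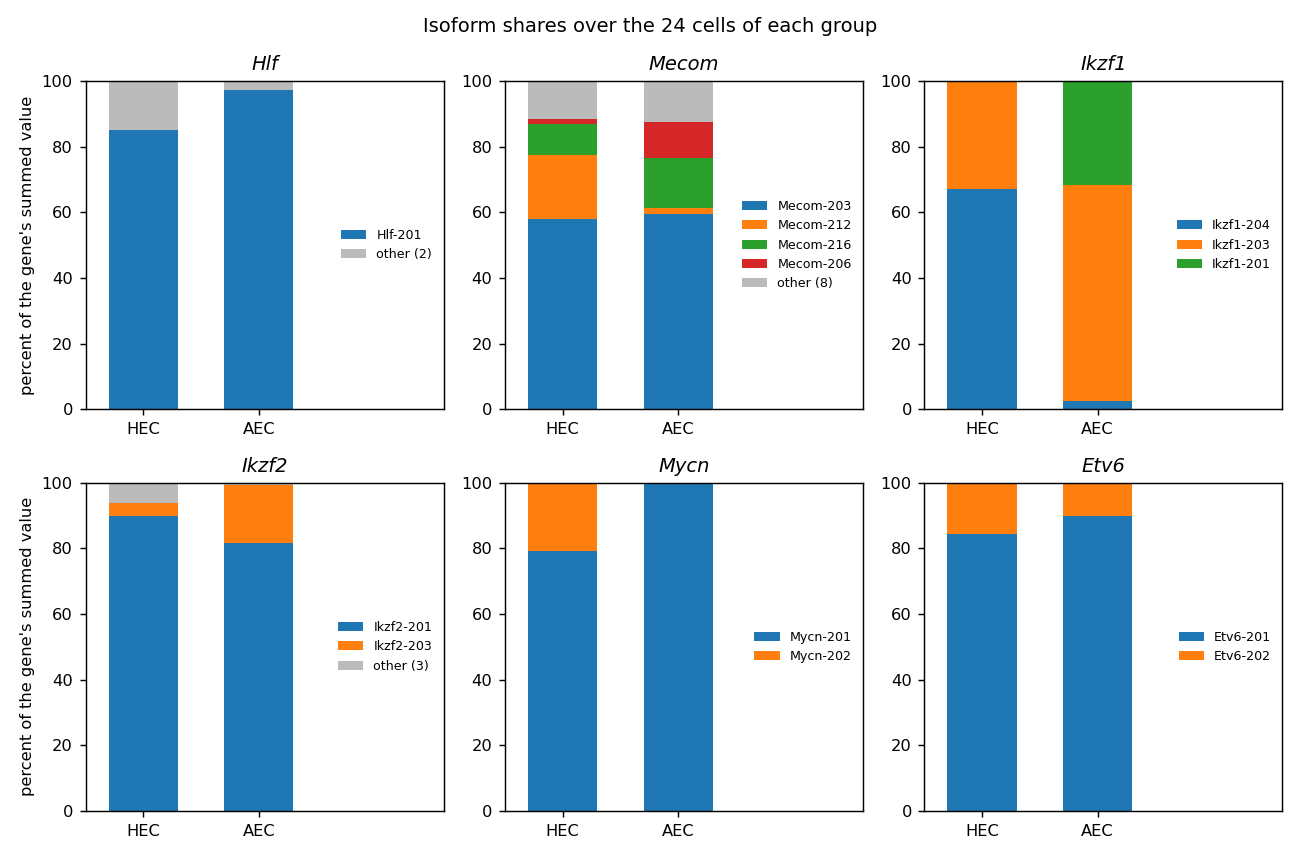
Share of each isoform in the summed value of its gene, in percent, over the 24 HEC cells (left bar) and the 24 AEC cells (right bar) of each panel; isoforms under 10% in both groups are joined in grey with their number. Mecom-212 takes 19.4% in HEC and 1.88% in AEC cells, and the *Ikzf1* bars rest on few cells.

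A list of 22 other factors known from blood stem cells gives the setting of these 6. Of the 20 with a ratio, 4 were at 1 or more and 2 at -1 or lower, with a median of 0.23. *Hoxa9*, a homeobox factor that supports stem cell expansion, averaged 0.998 ± 0.598 in HEC and 0.190 ± 0.343 in AEC cells, which is a log2 ratio of 1.92. *Hoxa5* stood at 1.75, and *Pbx3*, a Hox partner, at -1.28. AEC 19 made up 41.9% of the AEC sum of *Pbx3*, and the *Pbx3* medians ran the other way, 0.0198 in HEC and 0.00641 in AEC cells. These counts and those of the other lists stand beside 6.35% of all genes at 1 or more, 9.4% at -1 or lower and a median of 0.04, and no list was tested.

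**Figure D5:**
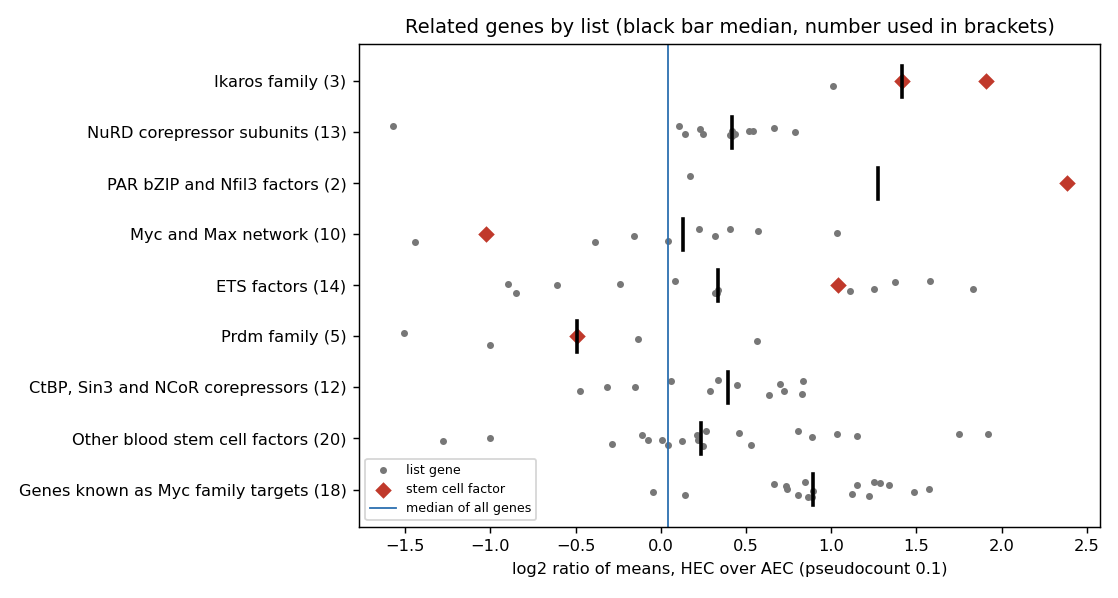
Log2 ratio of HEC over AEC means (horizontal axis, 0.1 added to each mean) for the genes of each list with a mean of at least 0.1; grey points are list genes, red diamonds the 6 factors, black bars list medians, and the blue line the median of all genes, 0.04. The *Mycn* diamond at -1.03 rests on AEC 7, and the Myc family targets have a median of 0.89.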

How the data were processed

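Per the submitters' processing notes, minimap2 2.18-r1015, Salmon 1.1.0 and build mm10 were used, with no role or order given; the sources used here do not give the annotation release. Each deposited table held a signal per transcript for 1 cell, which the values showed to be reads per 10000 reads of the cell, over 52927 transcripts. Values were whole multiples of 1 read within 0.01 read, so reads were recovered. Of the transcripts, 52799 matched GENCODE M21 and were summed per gene; 128 were left out. Cells had been picked 1 by 1, per the labels, and no doublet caller was run.

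Groups followed titles. The log2 ratio is log2 of the HEC mean plus 0.1 over the AEC mean plus 0.1. Clopper-Pearson and Poisson intervals (95%) cover counting error only and treat cells as independent. Isoform shares are percents of a gene's summed value, and isoforms with 10% or more in either group were named. Of each gene list, up to 3 genes with a mean of at least 0.1 and the largest absolute ratio were named, and as genes alike a factor the 3 with the highest Spearman correlation, over the 24 HEC cells and over all 48, among autosomal genes with a symbol, a mean of 0.5 or higher and a value above 0 in at least 12 HEC cells; other names were chosen after their values were seen, and some genes that these rules pick are not reported here. The factors and lists were chosen with earlier results of these data known. The scripts were tested on simulated data. Alternatives varied the pseudocount, scaling, summary, cells, depth, threshold and transcript types. Python 3.11.15 was used with matplotlib 3.10.9, numpy 2.4.6, scipy 1.17.1 and pandas 2.3.3.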

Additional observations from a re-analysis of the deposited data

How the results depend on the processing

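Leaving out each cell in turn gave log2 ratios of HEC over AEC of 2.183 to 2.64 for *Hlf*, -0.60 to -0.36 for *Mecom*, 0.87 to 1.67 for *Ikzf1*, 1.86 to 2.13 for *Ikzf2*, 0.93 to 1.21 for *Etv6* and -1.15 to 3.36 for *Mycn*. *Mycn*, at -1.03 over all cells, was reversed to 3.36 without AEC 7, to 3.48 without cells under 100000 reads, to 3.50 without the 6 HEC and 6 AEC cells of fewest genes, to 3.42 without shallow cells and 4 cells poor in *Cdh5* and *Kdr*, to 3.48 in cells thinned to 200000 reads (23 HEC and 18 AEC cells), to 3.89 by pooled reads, to 2.78 by mean log2 values and to 3.85 by medians. *Hlf* was 0.73 with a pseudocount of 1, and *Ikzf2* was 3.44 by medians. The Ikaros list median was 0.38 with a pseudocount of 1, and that of the PAR bZIP list was 0.39 with a pseudocount of 1, 0.13 with no filter and 1.96 without shallow cells. Median-of-ratios scaling, over 855 genes above 0 in every cell, kept the direction of each factor and moved the median of all genes to -0.21, against 0.04.

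Shares of cells moved with the threshold. Above 0, HEC cells stood at 95.8% for *Hlf*, 100% for *Mecom*, 91.7% for *Ikzf1*, and 100% each for *Ikzf2*, *Mycn* and *Etv6*, and AEC cells at 54.2%, 100%, 45.8%, 87.5%, 87.5% and 79.2% in the same gene order. At 0.5, HEC cells stood at 54.2% for *Hlf*, 95.8% for *Mecom* and 62.5% for *Etv6*, and AEC cells at 37.5% for *Etv6*. At 2, HEC cells stood at 20.8% for *Mecom*, 4.17% for *Ikzf1*, 54.2% for *Ikzf2* and 16.7% for *Etv6*, and AEC cells at 29.2% for *Mecom*, 4.17% for *Ikzf2* and 0% for *Etv6*. Without shallow cells 0% of AEC cells held *Mycn*. No paired analysis was possible because the results come from no test and replicate numbers only name cells. Depth limits the 6 shallow AEC cells, where 1 read is worth up to 0.754.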

Other observations

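Other genes varied across the 24 HEC cells in the same order as a factor, among 3102 genes abundant enough to be ranked. *Hlf* ranked most like *Zranb2*, *Arf5* and *Synj2bp* (Spearman correlations of 0.73, 0.63 and 0.62), and *Mecom* most like *Tspan13*, *Csnk2a1* and the endothelial receptor gene *Adgrf5* (0.73, 0.68 and 0.67). *Ikzf1* ranked most like *Pla2g4a*, *Rap1b* and *Ubqln1* (0.68, 0.63 and 0.62), *Ikzf2* most like *Gramd1a*, *Mga* and *Mef2c* (0.67, 0.66 and 0.64), *Mycn* most like the integrin gene *Itga4*, *Scoc* and *Jun* (0.69, 0.67 and 0.62), and *Etv6* most like *Dync1i2* (0.72). These are the highest of many values, chosen from the same cells, and carry no test. *Tspan13* with *Mecom* was at 0.61 in AEC cells too, whereas *Mga* with *Ikzf2* was at -0.04 there.

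Over all 48 cells the rankings also hold the difference between the groups. *Mecom* then ranked most like *Ifitm3* (0.72), the lymphatic growth factor gene *Vegfc* (0.69) and the endothelial phosphatase gene *Ptprb* (0.66), each of which was lower in HEC cells, with log2 ratios of -1.16, -1.53 and -1.55. The integrin gene *Itgb3*, higher in HEC cells with a log2 ratio of 2.62, ranked with *Ikzf1* (0.67), *Ikzf2* (0.76) and *Mycn* (0.75). *Hlf* ranked most like *Eed* (0.72), *Hsp90ab1* (0.71) and *Sfrp2* (0.71). *Eed*, a subunit of the Polycomb repressive complex, correlated with *Hlf* at 0.55 over HEC cells; over AEC cells, where *Hlf* had 36 reads in all, the value was 0.66. *Etv6* ranked with *Sptbn1* (0.55) and *Lsm14a* (0.52).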
